A study of Mus musculus with 3 samples.

Results

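Inflammatory chemokines and cytokines are secreted or cell surface proteins by which immune cells call in and activate other cells. The 8 ligand genes examined here are the CC chemokines Ccl3, Ccl4, Ccl5 and Ccl6, the interleukin 1 family member Il1b, the tumor necrosis factor (TNF) superfamily members Tnf and Tnfsf9, and Ifng, which encodes interferon gamma. They were picked by name after their levels in these data had been seen, so their values are descriptions and no test was made on them. All 8 genes were found among the 27088 genes measured, and all 8 were among the 12433 genes expressed highly enough to be compared.

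The libraries came from splenic B cells of female BALB/c mice that were 6 weeks old when the study began and 13 weeks old by the sample labels, and the cells had been sorted by flow cytometry. Mice of the PBS and the SJMHE1 group had allergic rhinitis induced with ovalbumin (OVA): 10 μg OVA with 2 mg Al(OH)3 was given intraperitoneally on days 0, 7 and 14, and 100 μg OVA was given intranasally from day 21 to 27 and from day 29 to 35. PBS, the control injection, or 10 μg of SJMHE1, a small peptide from the parasitic worm Schistosoma japonicum, was injected subcutaneously on days 0, 14 and 28, and the mice were killed on day 36. The peptide was emulsified in an oil adjuvant (incomplete Freund's) that was not part of the PBS injections, so the peptide and its adjuvant cannot be told apart here. RNA of 3 samples per group was mixed into 1 library, which leaves no replicate check on any difference between the groups. Healthy Control mice formed a further group whose library was not used here.

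Chemokines bind receptors on leukocytes and direct their movement along a gradient. Ccl3 and Ccl5 bind Ccr1, and activated B cells are a known source of Ccl3 and Ccl4, which draw T cells toward them. Interleukin 1 beta and TNF are early signals of inflammation made mostly by myeloid cells, interferon gamma is the signature cytokine of T helper 1, CD8 T and natural killer (NK) cells, and Tnfsf9 is a membrane ligand on antigen-presenting cells that costimulates T cells through Tnfrsf9. Transcription of several of these genes is driven by nuclear factor kappa B (NF-kB).

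Of the 8 ligand genes, 4 encode CC chemokines, named for a pair of adjacent cysteines near the start of the mature protein. The coding sequence around that pair is given here because it holds the feature that defines this chemokine family. Each run holds 60 bases of the GENCODE M21 transcript, from 5′ to 3′, and the capitals mark the codons of the adjacent cysteines.
Ccl3: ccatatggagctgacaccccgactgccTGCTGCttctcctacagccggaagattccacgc
Ccl4: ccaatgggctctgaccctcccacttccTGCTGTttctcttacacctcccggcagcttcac
Ccl5: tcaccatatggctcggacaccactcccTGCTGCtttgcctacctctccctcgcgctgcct
Ccl6: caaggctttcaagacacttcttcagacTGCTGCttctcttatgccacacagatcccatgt
The first of the paired cysteines is codon 34 in Ccl3 and Ccl4, codon 33 in Ccl5 and codon 50 in Ccl6, which has the longest coding sequence of these genes, 348 bases, beside 276, 276 and 273 bases in Ccl3, Ccl4 and Ccl5. In pairwise alignments of the coding sequences, identity was highest between Ccl3 and Ccl4, at 71.1%, and lowest between Ccl4 and Ccl5, at 61.0%. None of the 6 pairs shared a run of 50 identical bases, so reads of the 4 genes can be told apart over runs of that length.

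The 4 CC chemokine genes lie together on mouse chromosome 11, and their positions in the deposited table, in the mm10 build, are those of GENCODE M21 on GRCm38. Ccl5 (ENSMUSG00000035042) spans chr11:83525778-83530518 on the minus strand with 3 exons, Ccl6 (ENSMUSG00000018927) spans chr11:83587882-83593087 on the minus strand with 4 exons, Ccl3 (ENSMUSG00000000982) spans chr11:83647844-83649355 on the minus strand with 3 exons, and Ccl4 (ENSMUSG00000018930) spans chr11:83662584-83664683 on the plus strand with 3 exons. Il1b (ENSMUSG00000027398) lies at chr2:129364570-129371139 on the minus strand with 7 exons, and Ifng (ENSMUSG00000055170) lies at chr10:118441046-118445892 on the plus strand with 4 exons. Tnf (ENSMUSG00000024401) at chr17:35199381-35202007, minus strand, with 4 exons, and Tnfsf9 (ENSMUSG00000035678) at chr17:57105325-57107757, plus strand, with 3 exons, share a chromosome but not a locus. Il1b overlaps the antisense gene Il1bos, and Ccl6, Tnfsf9 and Ifng overlap the noncoding genes E230016K23Rik, Gm11110 and Gm49751. Il1bos, E230016K23Rik and Gm11110 lie on the strand opposite to Il1b, Ccl6 and Tnfsf9. Whether the counting used strand is not given in the sources used here, so reads of these pairs may not have been told apart. Gm49751 lies on the same strand as Ifng, so strand would not separate their reads. E230016K23Rik was given 9 reads for PBS against 16 for SJMHE1, where Ccl6 was given 775 against 255.

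The level of a gene is given as its FPKM, its reads scaled by transcript length and by the size of the library, which allows genes of different length to be compared. The difference between the libraries is the log2 ratio of these levels, SJMHE1 over PBS, with no pseudocount, and a gene was called past the threshold when the ratio was above 1 or below -1, which is a 2-fold difference. The table holds 48267168 counted reads for the PBS library and 51280237 for the SJMHE1 library. Each interval given is a 95% interval from the read counts, exact Poisson for a level and Clopper-Pearson for a ratio, and covers counting error only. Genes were compared when they reached an FPKM of 1 in either library and were not listed at 0 in any.

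In the SJMHE1 library, 5 of the 8 ligand genes were past the threshold on the lower side, namely Ifng, Ccl6, Il1b, Ccl3 and Ccl5, and Tnfsf9 was past it on the higher side. Ifng and Tnfsf9 reached an FPKM of 1 only in the library where they were higher, so their entry into the comparison rests on that library. Of the 6 ligand genes at 1 or more in both libraries, 4 were lower and 0 were higher past the threshold. Among all 11366 genes at 1 or more in both libraries, 151 were lower and 101 were higher past it. Of all 12433 genes compared, which had to reach 1 in either library only, 3.57% were below -1 and 2.43% were above 1. Among the 9450 genes whose higher FPKM lay in the range spanned by the 8 ligand genes, from 1.27 to 20.08, these shares were 3.52% and 2.4%. Since the genes were picked with these ratios known, nothing is read from the difference between these backgrounds and 5 of 8 or 4 of 6. Ccl4 and Tnf had ratios below 0 that did not reach the threshold, so that 7 of the 8 ratios were negative. The median ratio over the 8 genes was -1.15, beside -0.01 over all genes compared, of which the middle 90% lay between -0.82 and 0.64. The FPKM values of the 8 genes summed to 56.78 in the PBS library against 26.33 in the SJMHE1 library. In pooled RNA, fewer cells of a type and less RNA per cell cannot be told apart, and this holds for every level given here.

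**Figure D1:**
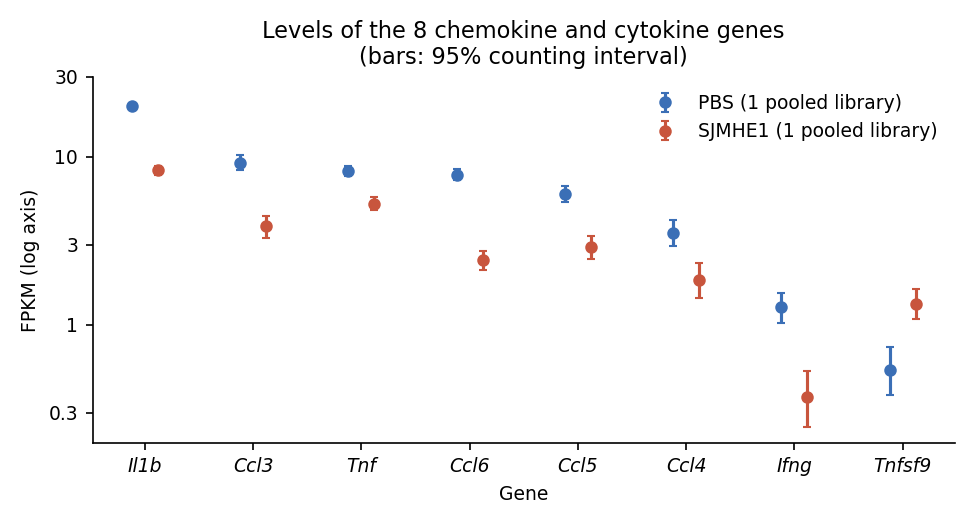
FPKM (log axis) of the 8 ligand genes in the PBS library and the SJMHE1 library, ordered by the PBS level, with bars for the 95% interval of the read count. Il1b was the highest of the 8 genes in both libraries, at 20.08 and 8.31, and Tnfsf9 was the only one of the 8 with the higher point in the SJMHE1 library, 1.34 against 0.54.

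Ccl3, a chemokine for monocytes, T cells and NK cells, had an FPKM of 9.25 in the PBS library against 3.86 in the SJMHE1 library, from 390 and 172 reads. The level was thus 2.40-fold lower in the SJMHE1 library, and the intervals of the levels, 8.35 to 10.2 and 3.30 to 4.48, did not overlap. The log2 ratio was -1.26, with an interval from -1.53 to -0.998. Ccl4, a close relative of Ccl3, had an FPKM of 3.52 in the PBS library against 1.85 in the SJMHE1 library, from 128 and 72 reads. It was lower in the SJMHE1 library by 1.90-fold, a ratio of -0.93 with an interval from -1.37 to -0.50, and was the gene nearest to the threshold from outside. The intervals of the ratios of Ccl3 and Ccl4 overlapped.

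Ccl5, which attracts T cells, eosinophils and other leukocytes, stood at 6.02 FPKM in the PBS library against 2.91 FPKM in the SJMHE1 library, from 319 and 163 reads. Its level was lower in the SJMHE1 library by 2.07-fold, with separate intervals of 5.38 to 6.72 and 2.48 to 3.39. Its ratio of -1.05, with an interval from -1.33 to -0.77, was the nearest to the threshold from inside, and with each library rescaled to the same FPKM sum Ccl5 was no longer past it. Ccl6, a chemokine of myeloid cells, showed the largest difference among the 4 CC chemokines, with 7.85 FPKM in the PBS library against 2.42 FPKM in the SJMHE1 library, from 775 and 255 reads. It was 3.24-fold lower in the SJMHE1 library, and the interval of its ratio, -1.70, ran from -1.91 to -1.49 and lay wholly past the threshold. That interval did not overlap with the interval of Ccl4 or of Ccl5, whereas it overlapped with that of Ccl3. Together the 4 CC chemokines summed to 26.64 FPKM in the PBS library against 11.04 FPKM in the SJMHE1 library, a log2 ratio of the sums of -1.27.

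Il1b, which encodes the precursor of interleukin 1 beta and rests on the most reads of the 8 genes, had an FPKM of 20.08 in the PBS library, from 2103 reads, against 8.31 in the SJMHE1 library, from 923 reads. It was the most abundant of the 8 genes in both libraries and was 2.42-fold lower in the SJMHE1 library. The ratio of -1.27, with an interval from -1.39 to -1.16, lay wholly past the threshold. In the PBS library 91.9% of the genes measured had a lower FPKM than Il1b, and in the SJMHE1 library 81.3% had a lower one.

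Tnf had an FPKM of 8.25 in the PBS library against 5.27 in the SJMHE1 library, from 742 and 503 reads. It was 1.57-fold lower in the SJMHE1 library, the smallest difference of the 8 genes, and its ratio of -0.65, with an interval from -0.81 to -0.48, excluded 0 and did not reach the threshold. The interval of Tnf did not overlap with those of Ccl3, Ccl6, Il1b or Ifng, so counting error alone does not cover the gap between Tnf and these 4 genes.

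Tnfsf9 went the other way, at 0.54 FPKM in the PBS library against 1.34 FPKM in the SJMHE1 library. Only 39 and 101 reads lie behind these levels, whose intervals of 0.38 to 0.74 and 1.09 to 1.63 did not overlap. The gene was 2.48-fold higher in the SJMHE1 library, a log2 ratio of 1.31 and an interval from 0.76 to 1.88 that includes ratios under the threshold. With a pseudocount of 1 the ratio was 0.60. Of the genes compared, 1.48% had a higher ratio.

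Ifng, the lowest of the 8 genes in the SJMHE1 library, had an FPKM of 1.27 in the PBS library against 0.37 in the SJMHE1 library, from 91 and 29 reads. It was 3.43-fold lower in the SJMHE1 library and had the lowest ratio of the 8 genes, -1.78, with an interval from -2.44 to -1.16. Of the genes compared, 1.21% had a lower ratio. The level of Ifng is small against a pseudocount, and with a pseudocount of 1 its ratio was -0.73.

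**Figure D2:**
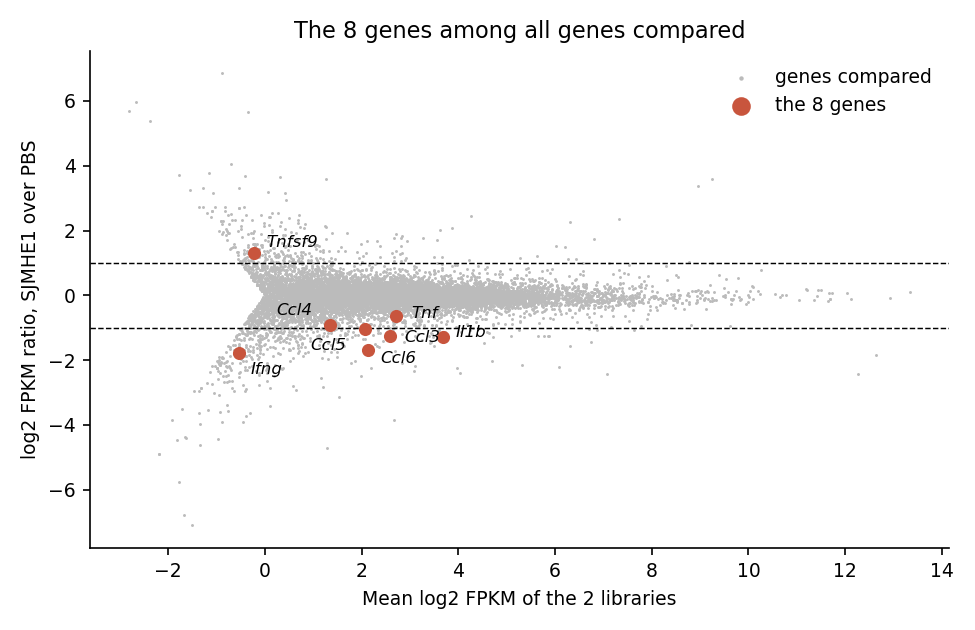
Log2 FPKM ratio, SJMHE1 over PBS, against the mean log2 FPKM of both libraries for the 12433 genes compared (grey) and the 8 ligand genes (red), with dashed lines at the threshold of 1 and -1. Il1b, Ccl3, Ccl6 and Ccl5 lie below -1 at middle levels, Ifng and Tnfsf9 lie at the low end of the levels where the grey points spread, and Ccl4 and Tnf lie inside the lines.

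The order of the 8 genes by level was not the same in both libraries. In the PBS library Il1b was followed by Ccl3, Tnf, Ccl6, Ccl5, Ccl4, Ifng and Tnfsf9, and the intervals of neighbours overlapped only for Ccl3 and Tnf and for Tnf and Ccl6. In the SJMHE1 library the order was Il1b, Tnf, Ccl3, Ccl5, Ccl6, Ccl4, Tnfsf9 and Ifng, and the neighbours from Ccl3 to Tnfsf9 overlapped, pair by pair. Tnf thus stood apart above the chemokines in the SJMHE1 library, where in the PBS library it could not be told from Ccl3 or Ccl6, and Ifng and Tnfsf9 exchanged the last places. Among the 21 pairs of genes that leave out Tnfsf9, the intervals of the ratios did not overlap in 7 pairs, all of which hold Ccl6 or Tnf.

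**Figure D3:**
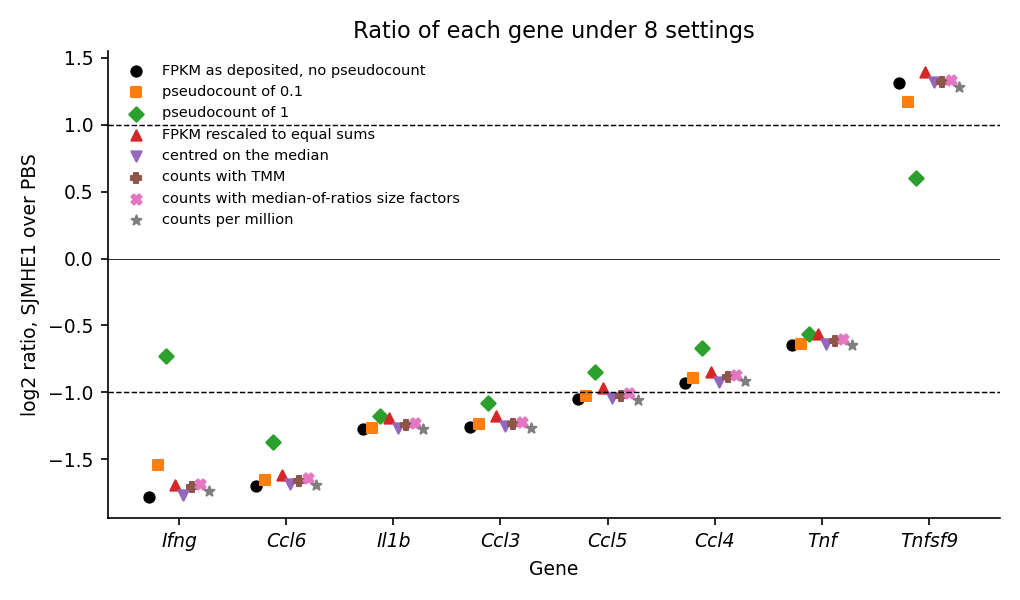
Log2 ratio, SJMHE1 over PBS, of each of the 8 ligand genes under 8 settings (FPKM with and without pseudocounts, rescaled or centred, and ratios of read counts under 3 scalings), with dashed lines at 1 and -1. Every gene keeps the sign of its ratio, which these settings could hardly change, and the widest ranges are those of Ifng, from -1.78 to -0.73, and Tnfsf9, from 0.60 to 1.39.

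The sign of each ratio was the same under all 8 settings that scale or offset the values, which is no check on these ratios. A pseudocount cannot change a sign. The scalings shifted the median of all genes by at most 0.083, which is small beside each of the 8 ratios. The ranges ran from -1.28 to -1.18 for Il1b, from -1.27 to -1.08 for Ccl3 and from -0.65 to -0.56 for Tnf. Ccl6 ranged from -1.70 to -1.37, Ccl5 from -1.06 to -0.84 and Ccl4 from -0.93 to -0.67.

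The chromosome 11 cluster was examined gene by gene because the starts of the 4 CC chemokine genes lie within 132.1 kb of each other. Ccl9, a myeloid chemokine whose start lies 48.1 kb from that of Ccl5 and between Ccl5 and Ccl6, had an FPKM of 1.05 in the PBS library against 0.69 in the SJMHE1 library, from 176 and 122 reads. It was lower, with a ratio of -0.61 and an interval from -0.95 to -0.26, but not past the threshold. Taf15, a broadly expressed RNA-binding protein gene beside the cluster, had 49.6 FPKM in the PBS library against 48.1 FPKM in the SJMHE1 library, a ratio of -0.04 with an interval from -0.09 to 0.0004. Heatr9, between Taf15 and Ccl5, had 19 reads in the PBS library against 0 in the SJMHE1 library. The 5 CC chemokine genes of the cluster thus had ratios from -1.70 to -0.61, all below 0, with Taf15 near 0.

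Tnf lies between Ltb and Lta, which encode the lymphotoxins that share its gene family and are expressed by resting and activated B cells. Ltb had 197.04 FPKM in the PBS library against 235.94 in the SJMHE1 library, and Lta had 14.13 and 17.48. Both were slightly higher in the SJMHE1 library, with ratios of 0.26 (interval 0.23 to 0.29) and 0.31 (interval 0.19 to 0.42), and their intervals lay apart from that of Tnf. Lst1, a leukocyte gene of the same locus, was lower, with 2.25 FPKM and 0.82 FPKM from 52 and 20 reads, a ratio of -1.46 with an interval from -2.28 to -0.69, and Nfkbil1 had a ratio of -0.11.

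**Figure D4:**
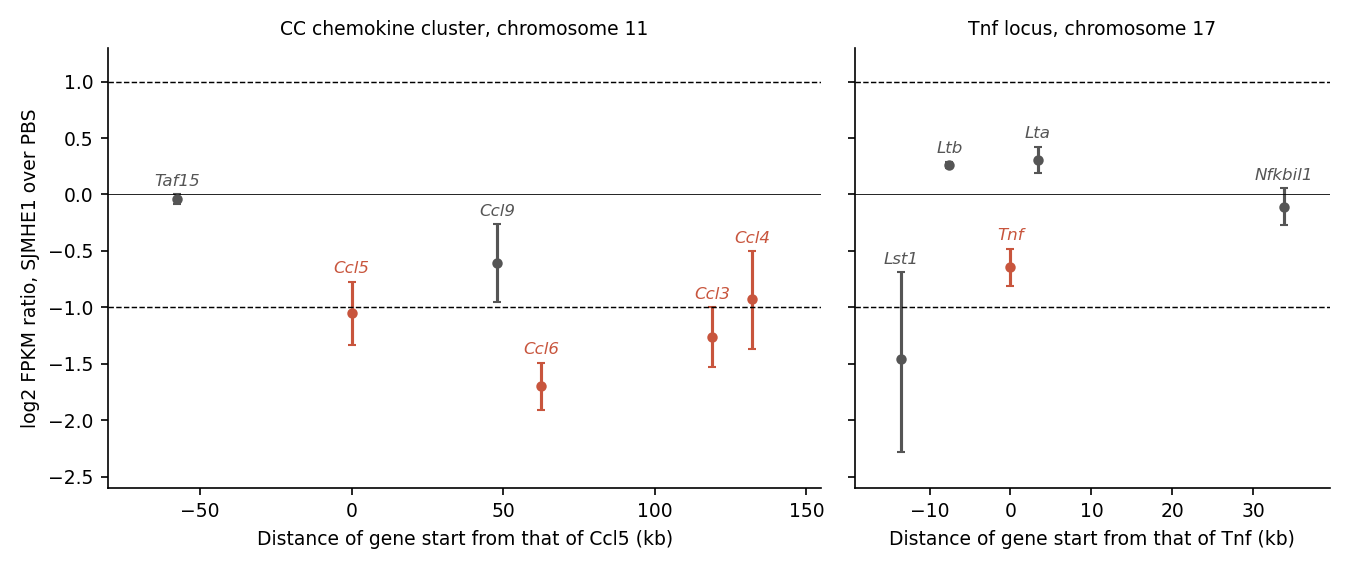
Log2 FPKM ratio, SJMHE1 over PBS, with the 95% counting interval, against the distance of each gene's start (kb) from the start of Ccl5 on chromosome 11 (left) or of Tnf on chromosome 17 (right), for the protein-coding genes that were compared, with the 8 ligand genes in red. Ccl5, Ccl9, Ccl6, Ccl3 and Ccl4 all lie below 0 and Taf15 lies at -0.04, and Tnf lies at -0.65 between Ltb at 0.26 and Lta at 0.31.

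The bases before the start site are shown for 3 genes that were lower in the SJMHE1 library and hold the same promoter element. RefSeq promoter windows (GRCm38.p6) were found for 5 of the 8 genes, Ccl3, Ccl6, Il1b, Tnf and Ifng, and the 120 bases before the start were searched. Each run is given from 5′ to 3′ on the strand of the gene, and the capitals mark a match to TATAAA.
Ifng, chr10:118440926-118441045, plus strand: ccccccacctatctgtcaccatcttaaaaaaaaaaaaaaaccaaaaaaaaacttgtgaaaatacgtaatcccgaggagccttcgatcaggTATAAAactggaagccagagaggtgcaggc
Il1b, chr2:129371140-129371259, minus strand: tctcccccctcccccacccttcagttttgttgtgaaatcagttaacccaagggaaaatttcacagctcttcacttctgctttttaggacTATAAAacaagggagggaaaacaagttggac
Tnf, chr17:35202008-35202127, minus strand: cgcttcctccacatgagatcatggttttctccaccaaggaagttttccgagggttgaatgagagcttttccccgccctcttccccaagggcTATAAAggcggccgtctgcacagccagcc
The match lies 30 to 25 bases before the start in Ifng, 31 to 26 in Il1b and 29 to 24 in Tnf, the usual place of a TATA box. The letters TATAAA on the strand of the gene were found in 3 of the 5 windows and in 4.19% of the 32851 promoter windows of the same length. GGGNNNNNCC, the letters of many NF-kB sites, and TGANTCA, the letters of AP-1 sites, each read on both strands, were found in 0 of the 5 windows and in 30.9% and 3.41% of all windows. These matches describe the letters of these windows only, and sites further from the start were not searched.

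Of 11 receptor genes for the 8 ligands, 7 were expressed highly enough to be compared, and 0 of these were past the threshold, with a median ratio of -0.02 beside -0.01 over all genes compared. Ccr1, a receptor for Ccl3 and Ccl5, had 8.76 FPKM in the PBS library against 10.14 in the SJMHE1 library, a ratio of 0.21. Both chains of the interferon gamma receptor were near equal in the libraries, with 21.63 and 21.28 FPKM for Ifngr1 and 14.32 and 14.91 FPKM for Ifngr2. The TNF receptor Tnfrsf1a had 2.3 FPKM in the PBS library against 1.39 in the SJMHE1 library, a ratio of -0.73, and Tnfrsf1b had 9.36 and 6.81, a ratio of -0.46. Il1r2, the decoy receptor of interleukin 1, had 1.02 and 1.03 FPKM, and Il1rap, the accessory chain of its signaling receptor, had 1.37 and 1.3 FPKM. The other 4 receptor genes were under an FPKM of 1 in both libraries. Of these, Tnfrsf9, the receptor of Tnfsf9, had 96 and 34 reads, a ratio of -1.56 with an interval from -2.17 to -0.98, opposite in sign to the ratio of its ligand. Ccr3 had 98 and 126 reads, a ratio of 0.29 with an interval from -0.10 to 0.69 that includes 0, and Il1r1 had 11 and 29 reads, a ratio of 1.42 with an interval from 0.37 to 2.56.

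Other ligands of the same families are described by lists that were written with earlier results of these data known, and so by counts alone. Of 18 CC chemokine genes in the table, only Ccl9 was compared beside Ccl3, Ccl4, Ccl5 and Ccl6. Among 17 CXC, C and CX3C chemokine genes, Cxcl2, which attracts neutrophils, was the only gene compared, and it had 5.04 FPKM in the PBS library against 5.22 in the SJMHE1 library, a ratio of 0.05. Of the 8 interleukins, interferons and growth factors compared beside Il1b and Ifng, 0 were past the threshold, with a median of -0.22. They include Il10, an anti-inflammatory cytokine of regulatory B cells, with 1.78 and 1.2 FPKM and a ratio of -0.57, Csf1, the growth factor of macrophages, with 2.04 and 1.02 FPKM and a ratio of -1.0, and Il12a, with 11.86 and 17.34 FPKM and a ratio of 0.55. Of the 5 TNF superfamily genes compared beside Tnf and Tnfsf9, Cd40lg, the ligand by which T cells activate B cells, was past the threshold, with 1.59 FPKM in the PBS library against 0.3 in the SJMHE1 library, a ratio of -2.41.

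Chemokine receptors were compared for 11 of 23 genes, and 0 were past the threshold, with a median of -0.17. Cxcr3, the receptor of interferon-induced chemokines, lay at the threshold with 1.34 and 0.67 FPKM, a ratio of -1.0 from 128 and 68 reads. Ccr7, which guides lymphocytes in the spleen and lymph nodes, had 141.8 FPKM in the PBS library against 80.47 in the SJMHE1 library, a ratio of -0.82, and Ccr6 had the highest ratio of these receptors, 0.41.

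Genes that act before and after these ligands were mostly near 0 where they were expressed highly enough to be compared. Of 16 NF-kB subunits and inhibitors, 0 were past the threshold, and their ratios lay between -0.57 for Tnfaip3, a TNF-induced inhibitor of the pathway, and 0.39 for Nfkb2, with a median of 0.04. Of 8 genes of interleukin 1 processing and the inflammasome that were compared, 1 was past the threshold, Nlrp3, the inflammasome sensor, with 1.47 FPKM in the PBS library against 0.52 in the SJMHE1 library, a ratio of -1.50. Casp1, the protease that matures interleukin 1 beta, had 20.55 and 21.39 FPKM, a ratio of 0.06. Of 14 interferon gamma response genes compared, Socs1, a feedback inhibitor of the receptor, was past the threshold with 1.19 and 0.4 FPKM and a ratio of -1.57, and the median was 0.02. That median leaves out the genes of the list under the FPKM minimum, Cxcl9, Cxcl10 and Iigp1. Their ratios were -3.0, -1.32 and -0.70, each with a counting interval below 0.

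The KEGG annotation in the deposited table places all 8 genes in cytokine-cytokine receptor interaction. Of the other 83 genes of that pathway that were compared, 1 was higher and 11 were lower past the threshold, with a median of -0.19. Toll-like receptor signaling holds Ccl3, Ccl4, Ccl5, Il1b and Tnf, and of its other 68 genes 1 was higher and 0 were lower, with a median of -0.03. In chemokine signaling, which holds the 4 CC chemokines, 0 of the other 101 genes were higher and 2 were lower, and in rheumatoid arthritis, which holds Ccl3, Ccl5, Ifng, Il1b and Tnf, 0 of the other 46 genes were higher and 3 were lower. Without the 8 ligand genes, the medians of chemokine signaling and rheumatoid arthritis were -0.03 and -0.04.

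**Figure D5:**
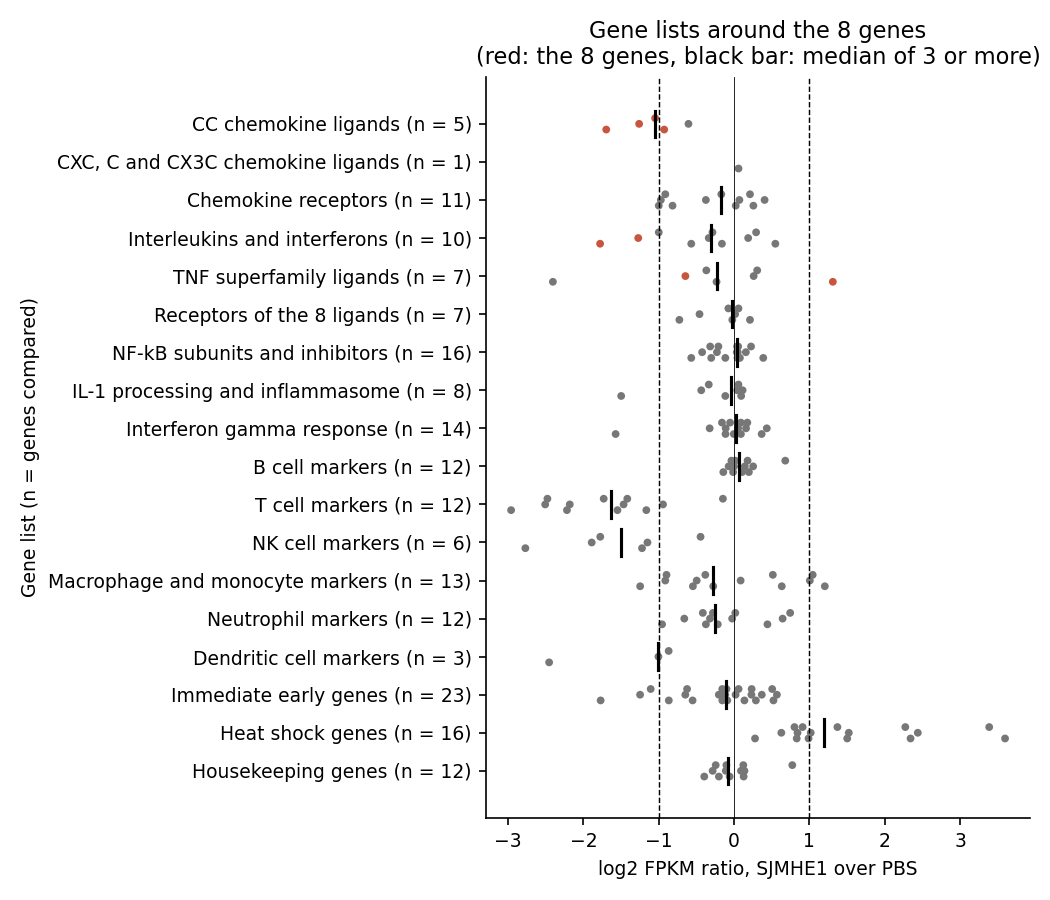
Log2 FPKM ratio, SJMHE1 over PBS, of every gene compared in 18 gene lists (1 row per list, n in the label), with the 8 ligand genes in red, a black bar at the median of lists of 3 or more genes and dashed lines at 1 and -1. The T cell and NK cell rows lie mostly below -1, the B cell and NF-kB rows lie around 0, and the heat shock row lies to the right with a median of 1.19.

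Genes that mark other cells of the spleen also differed between the libraries, and their part in the ratios of the ligand genes was not tested. The B cell identity of both libraries was clear from its markers, which summed to 3270 FPKM in the PBS library against 3453 in the SJMHE1 library, with 0 of 12 genes past the threshold. Cd79a, a chain of the B cell receptor complex, was the most abundant B cell marker, at 835.0 and 835.2 FPKM.

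Beside Ifng, Ccl5, Ccl3 and Ccl4, which T cells and NK cells are known to make, stood lower T cell and NK cell markers. Of 12 T cell markers compared, 10 were lower past the threshold and 0 were higher, with a median of -1.64. The sum of all 14 T cell markers was 64.43 FPKM in the PBS library against 35.84 in the SJMHE1 library, and the most abundant of them, Lck, which B cells also express at a low level, had 27.92 and 25.19. Without Lck the sums were 36.51 and 10.65, a log2 ratio of -1.78. The largest differences were those of Cd8b1, with a ratio of -2.96, Cd28, with -2.51, Trac, with -2.48, and Cd8a, with -2.22. Trac, the constant region of the T cell receptor alpha chain, had 9.42 FPKM in the PBS library against 1.69 in the SJMHE1 library. Of 6 NK cell markers compared, 5 were lower and 0 higher, with a median of -1.50, and the 10 markers in the table summed to 19.32 and 8.05 FPKM. The most abundant NK cell marker was Gzma, with 6.57 and 2.96 FPKM, and the largest differences were those of Gzmb, with a ratio of -2.77, Klrd1, with -1.89, Nkg7, with -1.78, and Ncr1, with -1.22. None of the T cell, NK cell, macrophage or neutrophil markers in the table was at 0 reads in either library.

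Beside Il1b, Tnf and Ccl6, which myeloid cells are known to make, the myeloid markers were mixed. Of 13 macrophage and monocyte markers compared, 1 was lower and 3 were higher past the threshold. Their median was -0.28, with 7 of the 13 below 0. The lower one, Lyz2, was also the most abundant, with 88.79 FPKM in the PBS library against 37.4 in the SJMHE1 library, a ratio of -1.25. C1qc, Cd14 and C1qb were higher, with ratios of 1.20, 1.04 and 1.01. The 16 markers summed to 133.41 and 76.84 FPKM, and to 44.62 and 39.44 FPKM without Lyz2. Of 12 neutrophil markers, 0 were past the threshold, and their sum was 469.72 FPKM in the PBS library against 541.16 in the SJMHE1 library, led by S100a9 with 196.0 and 266.5. Their median was -0.25, with 8 of the 12 below 0, and without S100a8 and S100a9 the sums were 200.15 and 159.72 FPKM. Of 3 dendritic cell markers compared, Siglech, a marker of plasmacytoid dendritic cells, and Itgax were lower, with ratios of -2.46 and -1.0, the latter just past the threshold with 3.23 and 1.61 FPKM. Itgax was also the most abundant of these markers. The sum of all 10 dendritic cell markers was 9.77 and 4.57 FPKM, and Batf3 had 28 reads in the PBS library against 0 in the SJMHE1 library.

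The libraries also differed in stress genes. Of 23 immediate early genes, which are induced within minutes of cell activation, 0 were higher and 3 were lower past the threshold, with a median of -0.10. The lower ones were Fosl2, with 2.22 and 0.65 FPKM, Atf3, with 77.2 and 32.5 FPKM, and Nr4a3, with 2.65 and 1.23 FPKM, at ratios of -1.77, -1.25 and -1.11. The highest ratios, short of the threshold, were those of the abundant genes Egr1, Fos and Jun, at 0.57, 0.52 and 0.51. The 23 genes summed to 5779 FPKM in the PBS library against 6327 in the SJMHE1 library. Of 16 heat shock genes, 9 were higher and 0 lower, with a median of 1.19, led by Hspa1b with a ratio of 3.60, Hspa1a with 3.39, Hspb1 with 2.44 and Dnajb1 with 2.34. Hspa1a and Hspa1b are near-identical copies, so the split of reads between them is uncertain. Of 12 housekeeping genes, 0 were past the threshold, with a median of -0.08. Whether the stress genes bear on the levels of the ligand genes was not tested.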

How the data were processed

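RNA of sorted splenic B cells was sequenced after rRNA removal and random priming, with 3 samples per group pooled into 1 library. The authors deposited whole-number read counts per gene, which are not normalized, and FPKM values, in which the counts are scaled to the length of the gene and the size of the library and then rounded. The submitters' processing notes name bcl2fastq 2.0, HISAT2, StringTie, DESeq2, limma and mm10 without saying what each did, and whether reads were counted by strand is not given in the sources used here. Per the labels, 4 value columns belong to the PBS and SJMHE1 libraries. A further 2 value columns match no sample by name and were not used, so the comparisons with the Control group were not made.

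The 8 ligand genes and the gene lists were chosen with earlier results of these data known. The log2 FPKM ratio, SJMHE1 over PBS, was taken without a pseudocount, for genes that reached an FPKM of 1 in either library and were not listed at 0 in any. With 1 library per group, edgeR's quasi-likelihood test could not be fitted and no p-value was computed. Intervals are 95% exact Poisson or Clopper-Pearson intervals of the counts and cover counting error only. The interval of a ratio was computed from the counts and shifted to the FPKM ratio. It does not cover the rounding of the FPKM values, which matters most for genes near 0. A count of 0 allows up to 3 counts, or 0.0622 (PBS) and 0.0585 (SJMHE1) CPM. Genes were named by rule: all 8 ligand genes, all their receptors, and in each list at most 4 genes past the threshold per direction by the size of the ratio, with the most abundant gene and genes at 0 of a cell type list. Genes beside the ligand genes on the chromosome, and the genes Ccl9, Cxcl2, Il10, Csf1, Il12a, Cxcr3, Ccr7, Ccr6, Tnfaip3, Nfkb2, Casp1, Cxcl9, Cxcl10, Iigp1, Zbtb46, Egr1, Fos and Jun, were named after their values were seen. The values of some genes of these lists are not reported here. The calculations were tested on simulated counts. Alternatives were pseudocounts of 0.1 and 1, rescaling of each library's FPKM to sum to 1000000, centring on their median, counts with edgeR's TMM, with median-of-ratios size factors or as CPM (reads scaled to the library's counted reads), other filters and other thresholds. The software was edgeR 4.0.16 in R 4.3.3, and scipy 1.17.1, pandas 2.3.3, numpy 2.4.6, Biopython 1.88 and matplotlib 3.10.9 in Python 3.11.15.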

Additional observations from a re-analysis of the deposited data

How the results depend on the processing

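No paired analysis was possible because a single pooled library stands for each group, and for the same reason no library could be left out. The alternatives for comparisons with the Control group were not run. The number of genes past the threshold was 746 as reported (302 higher, 444 lower). It was 246 with a pseudocount of 1 and 3385 of 20426 genes without the FPKM minimum. It was 252 of 11366 genes where both libraries had to reach an FPKM of 1 and 145 of 7352 where either had to reach 5. With a log2 ratio past 2 it was 191, and with the counting interval wholly past 1 it was 291. The filters and thresholds change it by construction. Under the other 6 alternatives, which are a pseudocount of 0.1, rescaled sums, centring, TMM, median-of-ratios factors and CPM, it lay between 661 and 746. Of the 8 ligand genes, 6 were past the threshold as reported, 3 with a pseudocount of 1 (Ccl3, Ccl6 and Il1b), 0 with a log2 ratio past 2 and 3 with the interval wholly past 1 (Ccl6, Il1b and Ifng). With rescaled sums 5 were, Ccl5 falling short, and 4 of 6 and 4 of 5 were, each on the lower side, under the stricter FPKM minimums in the order above. Of 56 ratios of single ligand genes under an alternative, 53 lay inside their counting interval. The 3 outside it, Ccl6, Tnfsf9 and Ifng with a pseudocount of 1, were -1.37, 0.60 and -0.73. Of the 56 ratios 0 changed sign, but these alternatives could hardly have reversed a ratio of this size. Each list median was set against a band from the median lower end to the median upper end of its genes' counting intervals. Of 119 list medians, 102 stayed within that band, which is not an interval of the median itself, and 17 moved out of it. In 6 cases the sign changed, from negative to positive, for the medians of the receptors of the 8 ligands, interleukin 1 processing and housekeeping genes, which were all between -0.08 and 0 as reported. Rescaling shifted the median of all genes by 0.083 and the other scalings by at most 0.045. Depth limits Tnfsf9 and Ifng most, at 39 and 29 reads in their lower library.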

Other observations

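Many ligands of the same families lay under the FPKM minimum, and their read counts are given here as values chosen after they were seen. Of these, 26 genes had at least 20 reads in 1 library. In 22 of them reads were counted in both libraries, and the counting interval of the log2 FPKM ratio, SJMHE1 over PBS, lay below 0 for 14, above 0 for 2 and included 0 for 6. The genes entered by their library with more reads, and no such share was computed over all genes of like level. Nothing is therefore read from these counts. Past the 2-fold threshold without an FPKM minimum, 2018 of 20426 genes were lower and 1367 were higher. Tnfsf8, the CD30 ligand of activated lymphocytes, had 149 reads in the PBS library against 14 in the SJMHE1 library, a ratio of -3.56 with an interval from -4.47 to -2.77. Fasl, the death ligand of cytotoxic T cells and NK cells, had 38 and 4 reads, a ratio of -3.54 with an interval from -5.49 to -2.07. Ccl22, which attracts regulatory and T helper 2 cells, had 56 and 10 reads, a ratio of -2.62 with an interval from -3.76 to -1.63, and Ccl24, an eosinophil chemokine, had 40 and 6 reads, a ratio of -2.81. The interferon-induced chemokines Cxcl9 and Cxcl10 had 28 and 4 reads and 71 and 31 reads, with ratios of -3.0 (interval -4.97 to -1.48) and -1.32 (interval -1.98 to -0.69). Il4, the cytokine that drives IgE production, had 34 reads in the PBS library against 10 in the SJMHE1 library, a ratio of -1.91 with an interval from -3.10 to -0.86.

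In the other direction, Tnfsf18, a costimulatory ligand of the same superfamily as Tnfsf9, had 21 reads in the PBS library against 58 in the SJMHE1 library, a ratio of 1.42 with an interval from 0.67 to 2.21. Cxcl14 had 4 and 23 reads, and its FPKM ratio was 2.81 with an interval from 1.26 to 4.80. That ratio rests on FPKM values rounded to 0.03 and 0.21, so rounding adds to its error. A further 4 genes had 0 reads in 1 library. With 3 reads set in place of the 0, Il21 with 33 reads, Il15 with 24 and Il17f with 20 in the PBS library were 11.7-fold, 8.50-fold and 7.08-fold lower in the SJMHE1 library. In the same way Ccl17, with 21 reads in the SJMHE1 library, was 6.59-fold higher there. These folds take the count of the other library as exact, so they are not lower bounds. These values come from 1 library per group and have no replicate check.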
